A study of Mus musculus with 24 samples.

Results

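Tanycytes are the radial-glia-like cells that line the floor and lower walls of the third ventricle and send long processes to the arcuate nucleus and the median eminence. The 7 genes described here, Rax, Lhx2, Gpr50, Dio2, Crym, Vcan and Nes, are widely used to follow these cells. They were chosen by symbol among the 22274 genes of the deposited table. No measured value enters that choice, but it was made with earlier results of these data known. Each gene identifier of the table was mapped to its mouse symbol, and all 7 were found. RNA sequencing was done on brain tissue of male C57BL/6J mice after a pituitary stalk electrical lesion (PEL), an electrolytic injury of the stalk, or after sham surgery, with or without growth hormone (GH). The hypothalamic tissue was taken so as to contain the supraoptic and paraventricular nuclei. The 6 hypothalamic groups were Sham, Sham-GH, PEL at day 3 (PEL_3d), PEL at day 3 with GH (PEL_3d-GH), PEL at day 10 (PEL_10d) and PEL at day 10 with GH (PEL_10d-GH), each with 3 libraries. A further 3 libraries from the hippocampus of lesioned mice at day 10 (HIP-PEL_10d) and 3 titled as hippocampus of sham-operated mice (HIP-Sham) were available. The labels give day 0 for all sham libraries, and the GH dose and schedule are not given in the sources used here. Nothing in the labels says that the libraries of a group came from separate animals, so p-values measure the spread between these libraries only.

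Rax and Lhx2 are homeobox transcription factors, and in the adult brain Rax is largely restricted to tanycytes. Gpr50 encodes an orphan receptor related to the melatonin receptors. Dio2 encodes the deiodinase that turns thyroxine into the active hormone triiodothyronine, and Crym encodes mu-crystallin, a protein that binds triiodothyronine in the cytosol. Tanycytes take up thyroid hormone and so help to set its level around neurons that control thyrotropin release. Vcan encodes versican, a chondroitin sulfate proteoglycan of the extracellular matrix, and Nes encodes nestin, an intermediate filament of neural progenitors. Both are also made by other cells, versican by oligodendrocyte precursors and nestin by endothelial cells and reactive astrocytes. Lhx2 and Crym are known from the hippocampus and cortex too, and Dio2 from astrocytes.

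The stretch upstream of the start is shown for 4 members, chosen as follows. Nes and Vcan moved together after the lesion, and Gpr50 was the member that passed a GH test, in lesioned libraries at day 3 only. Dio2 was the only one, among the 5 members with a window, in which a searched motif was found. The RefSeq promoter table (GRCm38.p6) held windows for 5 of the 7 members, and each sequence below runs 5′ to 3′ on the gene's own strand from 250 to 21 bases before the start. Capitals mark motif matches. Nes spans chr3:87970843-87971072 (plus), Vcan chr13:89742533-89742762 (minus), Gpr50 chrX:71663417-71663646 (plus) and Dio2 chr12:90739059-90739288 (minus).
Nes: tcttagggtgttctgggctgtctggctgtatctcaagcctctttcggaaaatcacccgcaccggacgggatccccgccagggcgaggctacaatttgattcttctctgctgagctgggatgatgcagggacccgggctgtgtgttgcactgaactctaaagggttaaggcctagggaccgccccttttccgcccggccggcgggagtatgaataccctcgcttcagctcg
Vcan: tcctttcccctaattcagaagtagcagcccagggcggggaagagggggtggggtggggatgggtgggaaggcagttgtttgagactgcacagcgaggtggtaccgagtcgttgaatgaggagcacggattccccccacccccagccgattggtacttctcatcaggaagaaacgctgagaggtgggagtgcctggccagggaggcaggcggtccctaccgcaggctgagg
Gpr50: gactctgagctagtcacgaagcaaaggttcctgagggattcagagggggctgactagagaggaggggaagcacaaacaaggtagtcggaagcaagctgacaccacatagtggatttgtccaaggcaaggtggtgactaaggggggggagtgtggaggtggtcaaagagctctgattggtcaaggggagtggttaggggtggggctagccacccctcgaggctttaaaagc
Dio2: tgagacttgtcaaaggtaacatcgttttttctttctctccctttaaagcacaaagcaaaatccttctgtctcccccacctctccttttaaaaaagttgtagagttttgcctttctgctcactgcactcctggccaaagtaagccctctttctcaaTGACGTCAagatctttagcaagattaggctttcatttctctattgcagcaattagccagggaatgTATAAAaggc
The motifs searched on both strands were the cyclic AMP response element TGACGTCA, the AP-1 site TGANTCA, the STAT site TTCNNNGAA and the TATA box TATAAA. In the Dio2 window the cyclic AMP response element began 95 bases and the TATA box 30 bases before the RefSeq start. For Dio2 that start lies upstream of the gene as given in the next paragraph, which begins at 90738438 on the minus strand. The motif distances are not counted from there. Over all 32851 windows of this length, 1.28% held the cyclic AMP response element and 11.8% the TATA box. The AP-1 letters were in 6.34% and the STAT letters in 6.48% of all windows and in none of the 5 member windows, which says only that these letters are not there. The Nes, Vcan and Gpr50 windows were 58.7%, 61.7% and 55.2% G and C, against 40.9% for Dio2 and a median of 51.7% over all windows.

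On mouse build GRCm38 (GENCODE annotation), Rax lay on chromosome 18 at 65928277-65939787 (minus strand), Lhx2 on chromosome 2 at 38339281-38369733 (plus), and Gpr50 on chromosome X at 71663667-71669257 (plus). Dio2 lay on chromosome 12 at 90724552-90738438 (minus), Crym on chromosome 7 at 120186380-120202111 (minus), Vcan on chromosome 13 at 89655312-89742509 (minus) and Nes on chromosome 3 at 87971078-87980451 (plus). All 7 are protein-coding genes, and values were summed over a whole gene. Rax, Lhx2, Dio2 and Vcan overlap annotated noncoding genes on the opposite strand. The strandedness of the counting is not given in the sources used here, so reads of those partners cannot be told apart from reads of the members.

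2 of the 24 libraries went against the tissue in their title. The library labelled Sham 1 held 4 counts of Avp, the vasopressin gene of the hypothalamus, against 1218 and 2008 in the other Sham libraries, and 260075 counts of Ttr, a choroid plexus gene, against 87 and 102. The library labelled HIP-Sham 1 held 1219 counts of Avp, against 1 and 3 in the other HIP-Sham libraries. Rax, Lhx2, Gpr50 and Dio2 split in the same way, as the plot by tissue shows. In the library labelled Sham 1, Crym at 27.6 FPKM, Nes at 3.16 and Vcan at 3.68 lay between the other Sham libraries and the hippocampal libraries. HIP-Sham replicate 3 has hypothalamus in its tissue field and was grouped by its title. Its values were hippocampal, with 0 counts of Rax, 16.6 FPKM of Lhx2 and 119 FPKM of Crym. The library labelled Sham 1 was therefore left out of every comparison, so that Sham has 2 libraries, and values with it are given where they change a result. HIP-Sham entered no comparison. Library totals ran from 15095267 to 17973494 counts.

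The members were measured at low to moderate levels in the hypothalamus, given here as FPKM, fragments scaled to gene length and library depth. Over the 17 hypothalamic libraries Rax was the lowest, with a median of 1.36 FPKM and 7 to 81 counts a library. Lhx2 had a median of 2.26 FPKM, Dio2 of 3.25, Nes of 4.11, Crym of 5.10, Vcan of 5.44 and Gpr50 of 9.68. Between the highest and the lowest library, Rax differed by 11.7 times and Nes by 7.18 times, whereas the other members differed by 2.77 to 5.04 times. The tests below were run on counts with edgeR's quasi-likelihood method across all genes, and p-values adjusted by Benjamini-Hochberg were called under 0.05, and fold changes are on the log2 scale of library-normalized counts. The FPKM reached per unit of CPM (counts scaled to library depth) varied between libraries by 1.24 times for Lhx2 and 1.21 times for Vcan, and by at most 1.03 times for the other members, so for Lhx2 and Vcan the FPKM values and the count-based fold changes need not match.

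**Figure D1:**
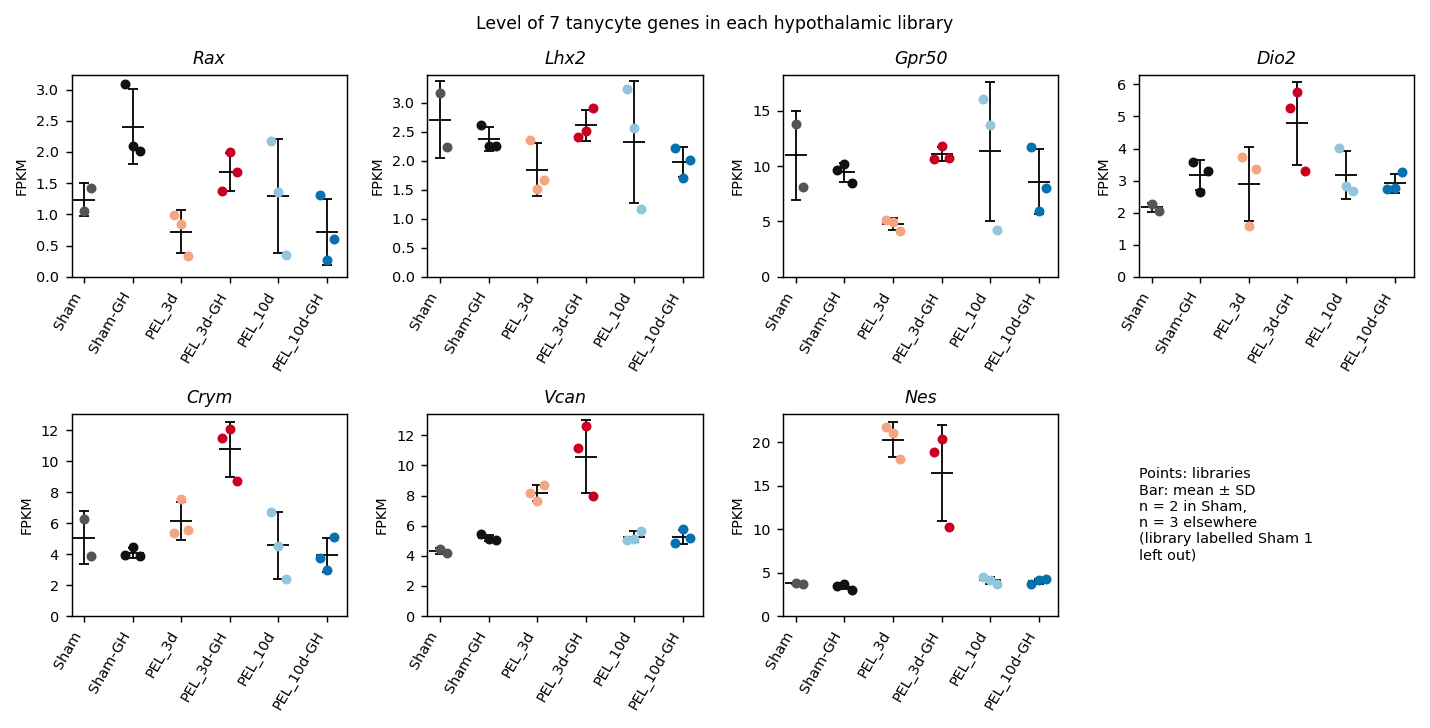
FPKM of each of the 7 tanycyte genes (vertical axes, each from 0) in the 6 hypothalamic groups. Points are libraries and bars the mean ± SD (n = 2 in Sham, n = 3 elsewhere). Nes and Vcan stand high in both day 3 groups, and Gpr50 stands low in PEL_3d, at 4.14 to 5.17 FPKM, but not in PEL_3d-GH, at 10.7 to 11.9 FPKM.

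At day 3 without GH, 3 of the 7 members passed the test, Nes and Vcan higher and Gpr50 lower, beside 40.5% of the 14905 genes tested. The median log2 fold change of the members was 0.26, against -0.01 for all genes tested. The share of members called, 3 of 7, is near that background. The normalized counts of the 2 groups did not overlap for 4 of 7 members, against 62.7% of all genes tested.

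Nes rose most. It stood at 3.83 and 3.72 FPKM in the Sham libraries, against 21.8, 21.1 and 18.01 FPKM in PEL_3d. All 3 lesioned libraries lay far above both Sham libraries, and the log2 fold change was 2.41 (SE 0.10, adjusted p = 9.04e-08), a 5.31-fold difference. Under GH the Nes levels were 3.45, 3.65 and 3.04 FPKM in Sham-GH and 18.8, 20.3 and 10.2 FPKM in PEL_3d-GH. The groups again did not overlap, although PEL_3d-GH replicate 3 lay well below the other 2 treated libraries. The log2 fold change under GH was 2.26 (SE 0.22, adjusted p = 2.69e-05), with 52.1% of 14743 genes called in that comparison. Under GH 5 of 7 members had groups that did not overlap at day 3, against 61.1% of all genes tested.

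Vcan rose with it. The levels were 4.48 and 4.20 FPKM in Sham, against 8.15, 7.61 and 8.69 FPKM in PEL_3d, and the groups did not overlap. The log2 fold change was 0.67 (SE 0.09, adjusted p = 3.16e-04). Under GH, Vcan stood at 5.44, 5.14 and 5.05 FPKM in Sham-GH, against 11.2, 12.6 and 7.96 FPKM in PEL_3d-GH. Every lesioned library was again above every sham library, with a log2 fold change of 1.04 (SE 0.15, adjusted p = 2.64e-04). Over both GH arms the log2 fold changes at day 3 were 2.34 for Nes (adjusted p = 5.77e-11) and 0.88 for Vcan (adjusted p = 2.18e-06), with 61% of 15337 genes called.

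Markers of other cells that make nestin or versican rose in the same libraries. At day 3 without GH, 8 of 9 reactive astrocyte markers, 6 of 8 endothelial markers and 7 of 8 oligodendrocyte precursor markers rose, and none of the 3 lists had a member that fell, beside the 40.5% of all genes called. The summed level of the reactive astrocyte markers was 155 to 180 FPKM in Sham and 1005 to 1171 FPKM in PEL_3d, that of the endothelial markers 104 to 106 and 157 to 178 FPKM, and that of the oligodendrocyte precursor markers 131 to 132 and 176 to 180 FPKM. No marker of these 3 lists was at 0 in any hypothalamic library. The smallest adjusted p-values belonged to Cd44 and Serpina3n, Cldn5 and Pecam1, and Cspg4 and Pdgfra. All 8 microglia and macrophage markers rose too, from a sum of 103 to 105 FPKM to 610 to 739 FPKM, with Csf1r and Cx3cr1 leading. Of 8 general astrocyte markers 3 rose, led by Aqp4 and Aldh1l1, and 3 fell. Of 11 markers of the ciliated ependymal cells next to tanycytes 2 rose, Foxj1 the first of them, and 1 fell, Ccdc153. Of the remaining lists, 5 of 10 hypothalamic neuron markers, led by Avp and Otp, 2 of 7 tested pituitary and pars tuberalis markers, Fshb and Cga, and 3 of 9 choroid plexus markers fell with none higher, and of 6 tested hippocampus markers 1 rose and 3 fell. Under GH, at day 3, the reactive astrocyte, oligodendrocyte precursor and microglia and macrophage lists had 8 of 9, 7 of 8 and 8 of 8 higher and none lower, and of the 8 endothelial markers 5 rose and Slco1a4 fell, beside 52.1% of all genes. The part of these cells in the Nes, Vcan and Crym values was not tested. In bulk tissue, more or fewer cells of a type and more or less RNA per cell cannot be told apart.

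Gpr50 fell at day 3 without GH. It stood at 13.8 and 8.15 FPKM in Sham, against 5.17, 4.96 and 4.14 FPKM in PEL_3d. All 3 lesioned libraries were below both Sham libraries, and the log2 fold change was -1.23 (SE 0.20, adjusted p = 7.08e-04). The Sham libraries were far apart, and without Sham replicate 2 the log2 fold change was -0.79 (adjusted p = 0.0123). With the library labelled Sham 1, at 0.830 FPKM, it was -0.68 and the call was lost (adjusted p = 0.671).

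Rax and Lhx2 were also lower at day 3 without GH, but neither passed the test. Rax was at 1.05 and 1.42 FPKM in Sham, against 0.990, 0.839 and 0.335 FPKM in PEL_3d, which is 9 to 27 counts a library. The groups did not overlap, with a log2 fold change of -0.80 and a 95% interval of -1.75 to 0.14 (adjusted p = 0.161). Lhx2 was at 3.17 and 2.24 FPKM in Sham, against 2.36, 1.51 and 1.67 FPKM in PEL_3d. Its groups overlapped, with a log2 fold change of -0.69 and an interval of -1.26 to -0.13 (adjusted p = 0.0505). Lhx2 passed without PEL_3d replicate 1 (-0.91, adjusted p = 0.0215), without Sham replicate 3 (-0.97, adjusted p = 0.0414), with no filter on low counts (adjusted p = 0.0380) and with a replicate block (-0.89, adjusted p = 0.00975), whereas without Sham replicate 2 it was at -0.36. Neuron markers of the arcuate and ventromedial nuclei, which lie beside the tanycytes, were lower in the same comparison. Of the 9 tested 6 fell and none rose, Ghrh and Tbx3 leading, beside the 40.5% of all genes called. The median of the 9 was -0.76 on the log2 scale. Their summed level was 194 to 209 FPKM in Sham and 124 to 175 FPKM in PEL_3d. Kiss1, on that list, was at 0 in 8 of 17 libraries. The part of the tissue sampled in the values of Gpr50, Rax and Lhx2 was not tested.

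None of these 3 genes passed the test at day 3 under GH. Gpr50 stood at 9.68, 10.2 and 8.50 FPKM in Sham-GH, against 10.7, 11.9 and 10.7 FPKM in PEL_3d-GH. The lesioned libraries were here slightly above the sham libraries, with a log2 fold change of 0.21 (SE 0.09, adjusted p = 0.0894). Without PEL_3d-GH replicate 3 it was 0.24 and passed (adjusted p = 0.0440). Lhx2 was at 2.61, 2.26 and 2.25 FPKM in Sham-GH, against 2.40, 2.52 and 2.90 FPKM in PEL_3d-GH, with a log2 fold change of 0.10 (adjusted p = 0.660). Rax was at 3.10, 2.09 and 2.02 FPKM in Sham-GH, against 1.37, 1.99 and 1.67 FPKM in PEL_3d-GH. The Rax groups did not overlap, and the log2 fold change of -0.53, with an interval of -1.08 to 0.03, did not pass (adjusted p = 0.102). Under GH 3 of 9 arcuate and ventromedial neuron markers fell at day 3, beside 52.1% of all genes, with a median log2 fold change of -0.36. Over both GH arms at day 3, none of Gpr50, Rax and Lhx2 passed. Their log2 fold changes were -0.37 (adjusted p = 0.318), -0.66 (adjusted p = 0.193) and -0.24 (adjusted p = 0.374).

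Whether the lesion effect at day 3 differed with GH was tested by an interaction term in 1 fit over the 4 groups. In that fit 0 members passed in edgeR, 3 had an unadjusted p under 0.05, and 1 passed in DESeq2, with 0.0462% of 15164 genes called by edgeR. The difference was 1.43 on the log2 scale for Gpr50 (SE 0.24, interval 0.92 to 1.94, adjusted p = 0.0525). Its p had rank 9 among all genes tested. DESeq2 put the same Gpr50 difference at 1.43 (adjusted p = 3.24e-05). For Crym the difference was 1.10 (adjusted p = 0.208) and for Lhx2 0.79 (adjusted p = 0.392). Without PEL_3d-GH replicate 3, Gpr50 (1.45, adjusted p = 0.0131), Crym (1.23, adjusted p = 0.0357) and Vcan (0.52, adjusted p = 0.0417) passed, and without Sham replicate 3 Gpr50 did (1.77, adjusted p = 0.00310). Gpr50 passed in 4 of 18 alternatives in all. Its difference was 0.99 without Sham replicate 2 and 0.91 with the library labelled Sham 1 (adjusted p = 0.700), and it did not pass in either.

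Of the 2 members that handle thyroid hormone, Crym rose at day 3 under GH and Dio2 did so less firmly. Crym was at 6.28 and 3.85 FPKM in Sham, against 5.36, 7.56 and 5.53 FPKM in PEL_3d. These groups overlapped, and the log2 fold change was 0.26 (interval -0.28 to 0.80, adjusted p = 0.425). Under GH, Crym was at 3.97, 4.43 and 3.85 FPKM in Sham-GH, against 11.5, 12.1 and 8.75 FPKM in PEL_3d-GH. Every lesioned library was above every sham library, and Crym rose by 1.37 on the log2 scale (SE 0.16, adjusted p = 7.13e-05), a 2.59-fold difference. Over both arms its log2 fold change was 0.90 (adjusted p = 0.00417), and with the library labelled Sham 1, at 27.6 FPKM, it was 0.07 (adjusted p = 0.923).

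Dio2 was at 2.27 and 2.06 FPKM in Sham, against 3.74, 1.59 and 3.37 FPKM in PEL_3d, with overlapping groups and a log2 fold change of 0.40 (adjusted p = 0.287). Without PEL_3d replicate 2, the lowest of the 17 libraries for this gene, it was 0.71 (adjusted p = 9.83e-04). Under GH, Dio2 was at 3.57, 2.65 and 3.30 FPKM in Sham-GH, against 5.27, 5.77 and 3.31 FPKM in PEL_3d-GH. The groups overlapped through the third PEL_3d-GH library, and the log2 fold change of 0.57 passed (SE 0.19, adjusted p = 0.0324). That call was lost without PEL_3d-GH replicate 1 (adjusted p = 0.102), PEL_3d-GH replicate 2 (0.115), Sham-GH replicate 2 (0.120) or Sham-GH replicate 3 (0.0701), and in 1 fit over all groups (0.0583). Over both arms the log2 fold change was 0.49 (interval 0.05 to 0.93, adjusted p = 0.0523), and it passed without PEL_3d replicate 2 (0.62, adjusted p = 0.00314) and in 6 other alternatives.

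**Figure D2:**
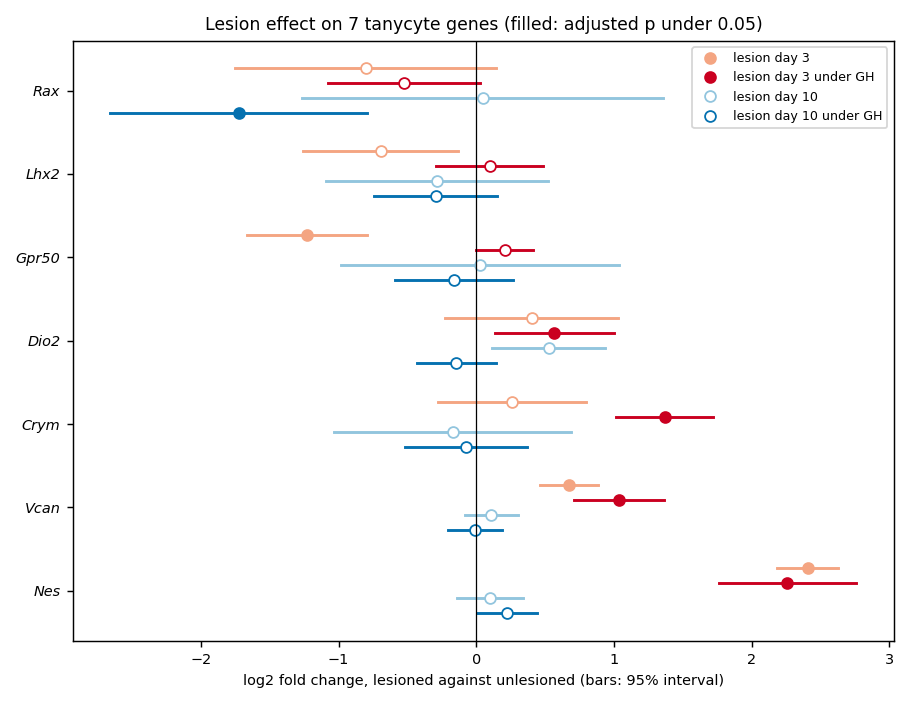
Lesion effect on each tanycyte gene at day 3 and day 10, without and with GH, as the log2 fold change of lesioned against sham libraries (horizontal axis) with its 95% interval. Filled points passed an adjusted p of 0.05 in edgeR. Nes and Vcan are filled at day 3 in both arms and open at day 10, and Gpr50 is filled only at day 3 without GH.

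At day 10 without GH, 0 of 7 members passed in edgeR and 0 in DESeq2, 1 had an unadjusted p under 0.05, and 9.4% of 14801 genes were called. The groups did not overlap for 1 of 7 members, against 44.5% of all genes. Nes was at 4.49, 4.11 and 3.69 FPKM and Vcan at 5.05, 5.11 and 5.68 FPKM in PEL_10d. Both were close to Sham on the count scale, with log2 fold changes of 0.10 (interval -0.14 to 0.34) and 0.11 (interval -0.08 to 0.30). The markers of other cells that make them were still higher at that stage, 7 of 9 for reactive astrocytes, 4 of 8 for endothelial cells and 3 of 8 for oligodendrocyte precursors, with none lower. The summed level in PEL_10d was 487 to 580 FPKM for the reactive astrocyte, 127 to 149 FPKM for the endothelial and 146 to 163 FPKM for the oligodendrocyte precursor markers. Dio2, at 4.02, 2.83 and 2.67 FPKM, was above both Sham libraries in all 3 lesioned libraries, with a log2 fold change of 0.53 (adjusted p = 0.112). Rax, Lhx2, Gpr50 and Crym were each lowest in the same PEL_10d library, replicate 3, which lay far below the other 2 for Rax, Lhx2 and Gpr50. There Rax was at 0.350 FPKM against 2.18 and 1.36, Gpr50 at 4.25 against 16.1 and 13.7, Lhx2 at 1.17 against 3.23 and 2.56, and Crym at 2.40 against 6.73 and 4.56 FPKM. The arcuate genes Agrp and Pomc were low there as well, with 2 counts of Agrp against 73 and 37, and 159 counts of Pomc against 1269 and 943. Without that library the log2 fold changes at day 10 were 0.49 for Rax, 0.41 for Gpr50, 0.015 for Lhx2 and 0.13 for Crym, and none passed. The part of the tissue sampled in these values was not tested. The intervals for these 4 genes at day 10 reached from -1.26 to 1.36 for Rax and from -0.99 to 1.04 for Gpr50, so changes of that size were not detectable here.

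At day 10 under GH 1 of 7 members passed, Rax, beside 30.9% of 14686 genes. It was also the 1 member whose groups did not overlap, as was so for 46.1% of all genes. Rax was at 3.10, 2.09 and 2.02 FPKM in Sham-GH, as above, against 1.30, 0.264 and 0.606 FPKM in PEL_10d-GH. All 3 lesioned libraries were below all 3 sham libraries, and Rax fell by 1.73 on the log2 scale (SE 0.42, adjusted p = 0.0114). This rests on 7 to 37 counts in the lesioned libraries. Without Sham-GH replicate 1, the highest library, the log2 fold change was -1.51 and the call was lost (adjusted p = 0.0549). PEL_10d-GH replicate 3 stood apart, with 94449 counts of Pomc and 497 of Prl, a gene of pituitary lactotrophs, and without it the Rax log2 fold change was -1.61. The lesion effect on Rax at day 10 differed with GH by -1.77 on the log2 scale (interval -3.50 to -0.05), which did not pass (adjusted p = 0.538). Of the 9 arcuate and ventromedial neuron markers tested here 2 fell, Agrp and Tbx3, and 1 rose, Pomc, which stood high in that 1 library. PEL_10d-GH replicate 2 was the lowest of its group for Rax, Lhx2, Gpr50 and Crym, at 0.264, 1.71, 5.97 and 2.97 FPKM. The part of the tissue sampled in the day 10 values under GH was not tested. Gpr50 was at 11.8, 5.97 and 8.05 FPKM and Lhx2 at 2.22, 1.71 and 2.01 FPKM in PEL_10d-GH, with log2 fold changes of -0.16 (adjusted p = 0.567) and -0.29 (adjusted p = 0.300). Without PEL_10d-GH replicate 1, the highest of its group for Gpr50, Gpr50 was at -0.45 and passed (adjusted p = 0.0196), as did Nes at 0.28 (adjusted p = 0.0437). The other members had log2 fold changes of -0.14 for Dio2, -0.07 for Crym, -0.01 for Vcan and 0.22 for Nes. In the interaction fit for day 10, 0 members passed in edgeR and 0 in DESeq2, 2 had an unadjusted p under 0.05, and 0% of 15116 genes were called by edgeR. Those 2 were Rax, given above, and Dio2, at -0.68 on the log2 scale (adjusted p = 0.392).

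Over both GH arms, 0 of 7 members passed at day 10 in edgeR and 0 in DESeq2, none had an unadjusted p under 0.05, and 33.5% of 15337 genes were called. The largest difference was that of Rax, at -0.82 on the log2 scale (interval -1.76 to 0.11, adjusted p = 0.169). Without PEL_10d replicate 1, Rax was at -1.24 and passed (adjusted p = 0.0257).

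Day 10 against day 3 was tested over both arms, in the fit of stage and GH to all 17 hypothalamic libraries. In it 3 of 7 members were lower at day 10, beside 42.1% of 15337 genes. Nes was at -2.18 on the log2 scale (SE 0.13, adjusted p = 2.90e-10). Vcan was at -0.81 (SE 0.11, adjusted p = 9.88e-06) and Crym at -0.97 (SE 0.24, adjusted p = 0.00310). The Crym call was lost with the library labelled Sham 1 in the fit (adjusted p = 0.128). Rax, Lhx2, Gpr50 and Dio2 had values of -0.16, -0.01, 0.37 and -0.30, none past the threshold.

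GH was compared with no GH within each stage, and 1 member passed in 1 of the 3 stages. In Sham, 0 of 7 members passed in edgeR and 0 in DESeq2, 2 had an unadjusted p under 0.05, and 1.09% of 14539 genes were called. The groups did not overlap for 3 members, against 33% of all genes. Those 2 were Dio2, with a log2 fold change of 0.57 (SE 0.14, adjusted p = 0.0769), and Rax, with 0.96 (SE 0.28, adjusted p = 0.126). For both, all 3 Sham-GH libraries were above both Sham libraries. Without Sham-GH replicate 2, Dio2 was at 0.69 and passed (adjusted p = 0.0165). The other members had log2 fold changes from -0.29 for Crym to 0.08 for Vcan.

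In PEL at day 3, GH-treated libraries had more Gpr50. The values were 5.17, 4.96 and 4.14 FPKM without and 10.7, 11.9 and 10.7 FPKM with GH, so that every treated library lay above every untreated one. Gpr50 rose by 1.24 on the log2 scale (SE 0.11, adjusted p = 0.00673), a 2.37-fold difference. It was 1 of 4 genes called among 14798, that is 0.027%, and 1 of 4 members whose groups did not overlap, against 12% of all genes. The other 3, named here after their values were seen, were Zbtb16 with a log2 fold change of 1.91, Socs2, a feedback inhibitor of GH signalling, with 1.15, and Fam107a with 0.55. Crym (0.83), Rax (1.25) and Lhx2 (0.59) were higher with GH in every library but did not pass, with adjusted p of 0.360, 0.592 and 0.695. Dio2 and Vcan, at 0.74 and 0.45, overlapped between the groups, and Nes, at -0.28, did too. In all, 6 of 7 members had an unadjusted p under 0.05, and 1006 of all genes did. The Gpr50 call was lost without PEL_3d replicate 1 (adjusted p = 0.0629), without PEL_3d-GH replicate 1 (0.0577), with a replicate block (0.0724) and in 1 fit over all groups (0.290). The log2 fold change stayed between 1.16 and 1.30 in all these alternatives. Of the 9 arcuate and ventromedial neuron markers tested 0 passed in edgeR in this comparison and 2 had an unadjusted p under 0.05, and their median log2 fold change was 0.11.

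In PEL at day 10, 0 of 7 members passed in edgeR and 0 in DESeq2, none had an unadjusted p under 0.05, and 0% of 14763 genes were called by edgeR. All 7 log2 fold changes were below 0, from -0.82 for Rax and -0.39 for Gpr50 to -0.03 for Nes, and the groups overlapped for each, whereas 11.4% of all genes had groups that did not. The difference between the GH effects at day 3 and day 10 was tested after the data were seen. It was 1.62 on the log2 scale for Gpr50 (interval 0.54 to 2.70) and 2.05 for Rax (interval 0.26 to 3.85). In that fit 0 members passed in edgeR and 0 in DESeq2, 4 had an unadjusted p under 0.05, and 0% of 15091 genes were called. Over all stages 0 of 7 members passed for GH in edgeR and 0 in DESeq2, 1 had an unadjusted p under 0.05, and 0.385% of 15337 genes were called. That 1 was Dio2, at 0.39 on the log2 scale (interval 0.03 to 0.74, adjusted p = 0.393).

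**Figure D3:**
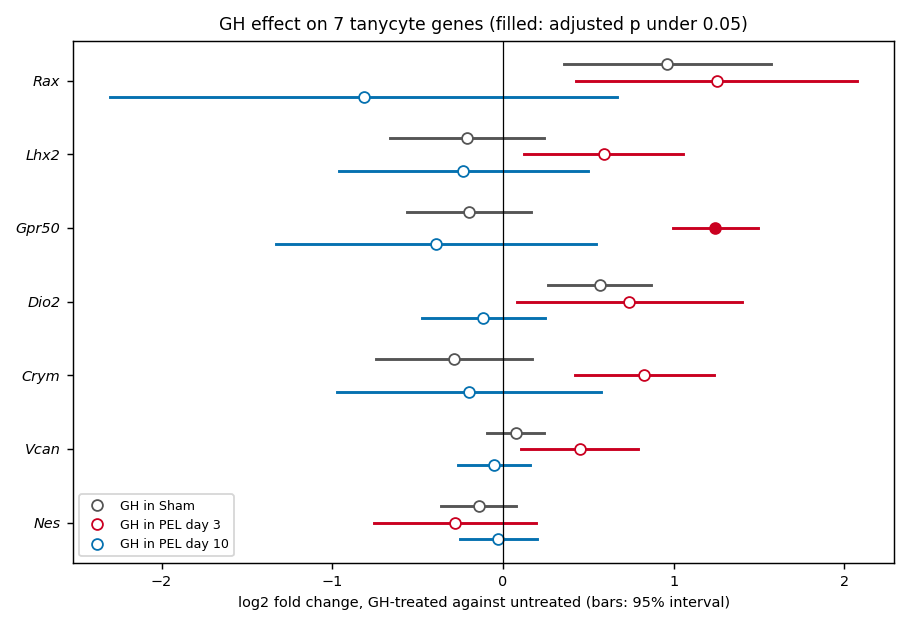
GH effect on each tanycyte gene in Sham, in PEL at day 3 and in PEL at day 10, as the log2 fold change of GH-treated against untreated libraries (horizontal axis) with its 95% interval. The filled point is Gpr50 at day 3, at 1.24, and at day 10 all 7 points lie below 0.

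Set in order of mean FPKM over the 6 groups, most neighbouring groups overlapped. For Nes, PEL_3d (20.3 ± 2.003, SD, n = 3) and PEL_3d-GH (16.5 ± 5.47, n = 3) overlapped each other and lay above PEL_10d (4.10 ± 0.398, n = 3) without overlap, and Sham (3.77 ± 0.078, n = 2) lay above Sham-GH (3.38 ± 0.316, n = 3). For Vcan, PEL_3d-GH (10.6 ± 2.40, n = 3) and PEL_3d (8.15 ± 0.542, n = 3) overlapped, and PEL_3d lay above PEL_10d (5.28 ± 0.347, n = 3) without overlap, as did Sham-GH (5.21 ± 0.203, n = 3) above Sham (4.34 ± 0.197, n = 2). For Crym, PEL_3d-GH (10.8 ± 1.78, n = 3) lay above PEL_3d (6.15 ± 1.22, n = 3), and every lower pair of neighbours overlapped. For Gpr50, PEL_3d (4.76 ± 0.548, n = 3) lay below PEL_10d-GH (8.59 ± 2.93, n = 3), and the 5 other groups overlapped from neighbour to neighbour. For Rax, Sham-GH (2.40 ± 0.602, n = 3) lay above PEL_3d-GH (1.68 ± 0.310, n = 3), and all lower neighbours overlapped. For Lhx2 and Dio2 every pair of neighbours overlapped.

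The 7 genes did not vary as 1 set. Over the 17 hypothalamic libraries, Pearson's r between log2 CPM was 0.87 for Lhx2 and Gpr50, 0.78 for Rax and Lhx2 and 0.73 for Rax and Gpr50. It was 0.89 for Vcan and Nes. Between these sets it was near or below 0, from -0.02 for Rax and Vcan to -0.33 for Gpr50 and Nes. With group means taken out, the values of Rax, Lhx2 and Gpr50 ran from -0.33 to -0.18 with Vcan and from 0.037 to 0.21 with Nes. Crym was nearer to Vcan (0.77) and Nes (0.71) than to Gpr50 (0.36), but after each group's mean was taken out it was 0.80 with Gpr50 and 0.11 with Vcan. Taken the same way within groups, the 3 values among Rax, Lhx2 and Gpr50 were 0.80 to 0.87. All 3 genes were lowest of their group in PEL_10d replicate 3 and in PEL_10d-GH replicate 2. The r values were not taken without these libraries. Among 15340 genes the 5 most like Rax were Hes6 (0.81), Celsr1 (0.80), Atp6v0d1 (0.79), Lhx2 (0.78) and Zfp251 (0.78). Gpr50 had rank 27 and Crym rank 1984. These are descriptions over libraries that share tissue sampling and lesion stage. The mean log2 level of the arcuate and ventromedial neuron markers had an r of 0.69 with Gpr50 and 0.55 with Rax, and that of the thyroid hormone genes without Dio2 and Crym 0.75 and 0.52. That of the 20 other tanycyte genes had an r of 0.45 with Gpr50 and 0.19 with Rax. It was 0.73 with Dio2, 0.61 with Crym, 0.50 with Vcan, 0.49 with Lhx2 and 0.37 with Nes. The endothelial, oligodendrocyte precursor, reactive astrocyte and microglia and macrophage markers had values of 0.73 to 0.81 with Nes and of 0.70 to 0.77 with Vcan. The hypothalamic neuron and choroid plexus markers ran the other way, with values of -0.74 and -0.75 with Nes and of -0.75 and -0.56 with Vcan.

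**Figure D4:**
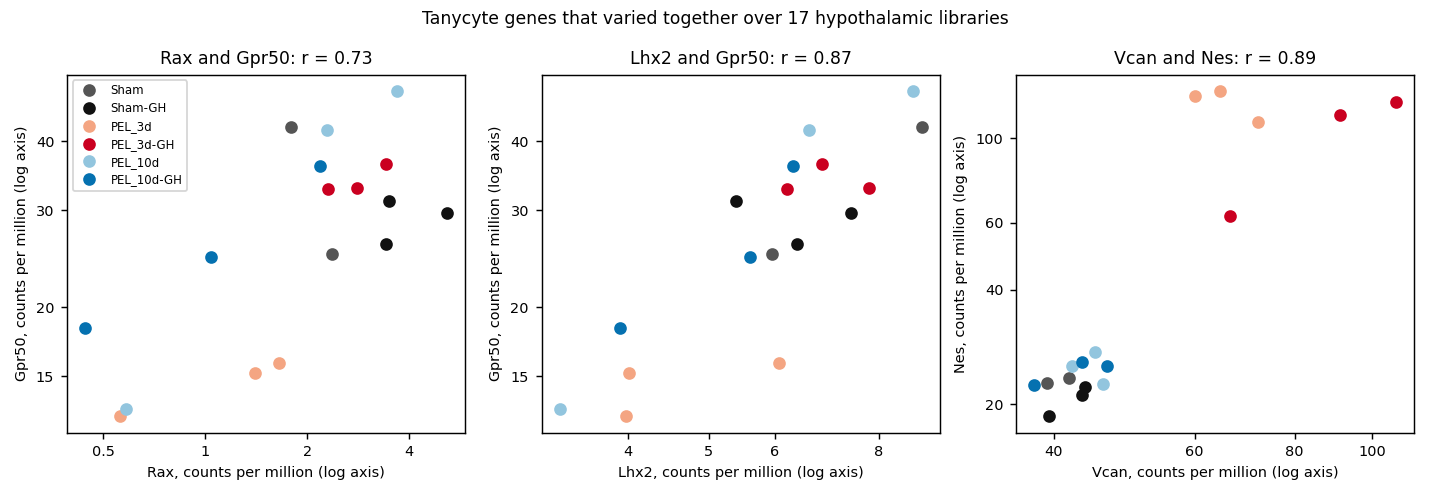
CPM of Gpr50 against Rax, Gpr50 against Lhx2 and Nes against Vcan (log axes), 1 point for each of 17 hypothalamic libraries, coloured by group. Rax, Lhx2 and Gpr50 vary together within and across groups, while Nes and Vcan separate the day 3 libraries from all others.

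Of 20 other genes known from tanycytes, 5 rose and 4 fell at day 3 over both GH arms, with a median log2 fold change of 0.11 against -0.0006 for all genes. That is fewer than the 61% of all genes tested that were called there. Vim, the intermediate filament partner of nestin, rose most, with a log2 fold change of 3.45 (adjusted p = 5.35e-12). It stood at 31.6 and 32.6 FPKM in Sham, against 328, 318 and 336 FPKM in PEL_3d. Igfbp5, an insulin-like growth factor binding protein, rose by 0.62 (adjusted p = 2.88e-05) and the progenitor factor Sox2 by 0.40 (adjusted p = 1.66e-04). The genes that fell were Col25a1 (-0.53, adjusted p = 5.71e-06), Ppp1r1b (-0.59, adjusted p = 2.60e-05), Slc17a8 (-0.72, adjusted p = 9.20e-04) and Trhde (-0.38, adjusted p = 0.0136). Many of these genes are made by other cells as well, Vim by reactive astrocytes and Ppp1r1b by neurons. In the separate arms at day 3, 5 rose and 7 fell without GH, and 7 rose and 4 fell under GH, beside the 40.5% and 52.1% of all genes given above. The homeobox genes Six3 and Six6 fell without GH, with log2 fold changes of -0.58 (adjusted p = 0.00446) and -0.61 (adjusted p = 0.0295).

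At day 10 over both arms 4 of the 20 rose and 1 fell, fewer than the 33.5% called over all genes. Vim was still at 1.54 (adjusted p = 4.65e-07), Igfbp5 at 0.67 (adjusted p = 4.67e-05) and Lepr, the leptin receptor, at 0.70 (adjusted p = 0.00815), and Col25a1 fell by 0.30 (adjusted p = 0.00455). Without GH 3 of the 20 rose and none fell at day 10, and under GH 5 rose and 3 fell, beside 9.4% and 30.9% of all genes. Lepr was at 3.14 and 2.77 FPKM in Sham, against 5.38, 4.06 and 4.57 FPKM in PEL_10d. From day 3 to day 10, 4 of the 20 were higher and 4 lower, near the 42.1% called over all genes, with Vim at -1.91 and Lepr at 0.58. For GH over all stages 0 of the 20 passed in edgeR, and 3 had an unadjusted p under 0.05.

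The handling of thyroid hormone was followed with 19 genes, Dio2, Crym and Trhde among them. At day 3 over both arms 5 rose and 7 fell, with a median log2 fold change of 0.10. That count is near the 61% called over all genes. Those that rose with the smallest p were Slc16a10, a transporter that carries thyroid hormone and aromatic amino acids, by 1.66 (adjusted p = 5.57e-08), Slc7a8, a light-chain amino acid transporter, by 0.82 (adjusted p = 3.78e-07), Rxra, a partner of the thyroid hormone receptors, by 0.29 (adjusted p = 2.85e-04) and Crym, given above. Those that fell were led by Hr, a corepressor that is itself a thyroid hormone target, at -1.02 (adjusted p = 3.09e-08), the receptor Thrb at -0.92 (adjusted p = 3.18e-07), the hormone-responsive factor Klf9 at -0.58 (adjusted p = 8.72e-06) and the coactivator Ncoa1 at -0.35 (adjusted p = 1.34e-05). The receptor Thra fell by 0.34 (adjusted p = 8.07e-05). The hormone transporter Slco1c1 had a log2 fold change of 0.10 (adjusted p = 0.118), and the releasing hormone Trh of 0.20 (adjusted p = 0.333). Thrb stood at 11.6 and 11.4 FPKM in Sham, against 6.88, 6.07 and 5.31 FPKM in PEL_3d. Dio3, which inactivates thyroid hormone, was near the detection limit, at most 28 counts a library and 0 in 1, and had a log2 fold change of 0.38 (adjusted p = 0.635).

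In the separate arms at day 3, 3 of the 19 rose and 7 fell without GH, and 6 rose and 7 fell of 18 tested under GH, beside 40.5% and 52.1% of all genes. At day 10 over both arms 2 rose, Slc16a10 by 0.56 (adjusted p = 0.0137) and Rxra by 0.16 (adjusted p = 0.0372), beside 33.5% of all genes, and 3 fell, Thrb at -0.51 (adjusted p = 6.43e-04), Hr at -0.47 (adjusted p = 7.05e-04) and Ncoa1 at -0.17 (adjusted p = 0.0158). Without GH 0 of the 19 passed at day 10 in edgeR and 5 had an unadjusted p under 0.05, and under GH 2 rose and 4 fell of 18, near the 30.9% called over all genes, beside 9.4% without GH. For GH over all stages 1 passed, Klf9, with a log2 fold change of 0.38 (adjusted p = 0.0134). Klf9 was at 20.7 and 20.5 FPKM in Sham, against 28.8, 26.4 and 27.7 FPKM in Sham-GH, where it rose by 0.44 (adjusted p = 0.00636), as did Slc7a5 by 0.35 (adjusted p = 0.0398).

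The members were set against hippocampus in the lesioned mice at day 10, where 6 of 7 could be tested and all 6 differed, beside 60.6% of 14561 genes. For all 6 the libraries of the 2 tissues did not overlap, as was so for 68.2% of all genes. Gpr50, Nes and Vcan were higher in the hypothalamus, and Lhx2, Dio2 and Crym were higher in the hippocampus. Rax had 105 counts over the 3 PEL_10d libraries and 2 over the 3 HIP-PEL_10d libraries, a depth-corrected ratio of 54.5 (95% interval 14.7 to 456, counting error only), and was not kept by the filter on low counts. Gpr50 was at 0.613, 0.018 and 0.021 FPKM in HIP-PEL_10d, below every PEL_10d library, with a log2 difference of 5.49 (SE 0.78, adjusted p = 2.62e-04). Its counts in the hippocampus were 30, 1 and 1, so the level there came almost wholly from 1 library. Without that library, HIP-PEL_10d replicate 1, the log2 difference was 8.77. Crym was at 121, 174 and 130 FPKM in HIP-PEL_10d, and its log2 difference, hypothalamus minus hippocampus, was -5.20 (adjusted p = 5.61e-07). Lhx2, at 17.5, 22.5 and 21.4 FPKM, had a difference of -3.30 (adjusted p = 6.22e-06), and Dio2, at 7.22, 8.27 and 8.99 FPKM, of -1.61 (adjusted p = 2.10e-05). Nes and Vcan differed by 0.86 (adjusted p = 8.09e-04) and 0.73 (adjusted p = 6.44e-04). Of the 7 genes, Rax and Gpr50 were thus nearly absent from hippocampus, whereas Lhx2, Dio2 and Crym were more abundant there, so their name as tanycyte genes rests on what is known of them and not on these levels. Of the 20 other tanycyte genes 12 were higher in the hypothalamus and 7 lower, led by Six6 (8.16) and Tgfb2 (-1.70), and of the 19 thyroid hormone genes 3 were higher and 12 lower, with Trh at 7.91.

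**Figure D5:**
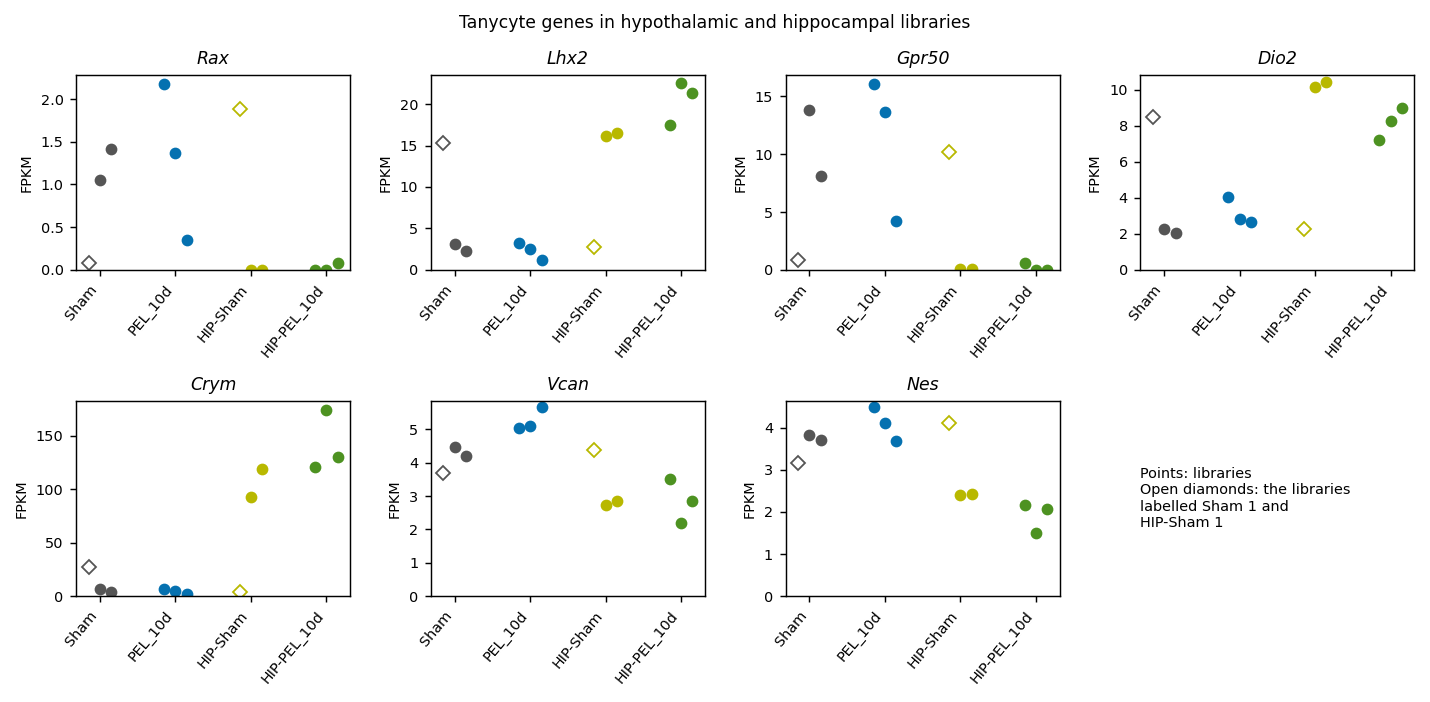
FPKM of each tanycyte gene (vertical axes, each from 0) in the Sham and PEL_10d hypothalamic libraries and the HIP-Sham and HIP-PEL_10d hippocampal libraries. Points are libraries, and open diamonds are the libraries labelled Sham 1 and HIP-Sham 1. The library labelled Sham 1 sits near the hippocampal level in Rax, Lhx2, Gpr50 and Dio2, and HIP-Sham 1 near the hypothalamic level in those genes and in Crym.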

How the data were processed

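RNA sequencing was done on 24 libraries, per the labels total RNA made into libraries with a SMARTER mRNA kit. The methods and processing notes of the authors name alignment with Hisat2 (2.0.5) and counting with featureCounts (1.5.0-p3), and the labels name build GRCm38 (mm10). The authors deposited estimated counts, of which 8.22% were not whole and were rounded here, and FPKM, which the authors scaled by gene length and depth. Counting of whole reads would give whole numbers, so how the deposited counts were estimated is not known. Annotated comparisons by the authors were not used. Identifiers were mapped to symbols (22219 of 22274 matched). Genes were kept by filterByExpr (minimum count 10), scaled by TMM and tested with edgeR (4.0.16, R 4.3.3) within the groups compared; comparisons over both arms fitted stage and GH to 17 libraries. DESeq2 (1.42.0), other filters and scalings, a replicate block and leaving out each library were tried. The pipeline was tested on simulated data with the same spread for every gene. That test does not cover members that varied more, such as Rax. All members kept by the filter were tested in every comparison, and not every value is printed. From the other tanycyte and thyroid hormone lists up to 4 genes with the smallest p in each direction were named, with Vim and 7 preset thyroid hormone genes, and up to 2 genes of each marker list. Some genes that this rule names are not reported here. The members and lists were chosen with earlier results of these data known. The comparison of GH effects at day 3 and day 10 was added after the data were seen. Correlations used log2 CPM with a prior count of 2. Depth limits Rax most, and the interval of its ratio covers counting error only.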

Additional observations from a re-analysis of the deposited data

Results flagged for a closer look

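The lesion effect on Gpr50 at day 3 had opposite signs in the 2 GH arms, with every lesioned library below every sham library without GH and above every sham library under GH. The log2 fold changes were -1.23 without GH and 0.21 under GH, and the second did not pass the test (it passed only without PEL_3d-GH replicate 3, at 0.24, adjusted p = 0.0440). The difference of 1.43 was tested by an interaction term and had an adjusted p of 0.0525 in edgeR. It passed in 4 of 18 alternatives, and it was 0.99 without Sham replicate 2 and 0.91 with the library labelled Sham 1 (adjusted p = 0.700).

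Members stood out in the 2 libraries whose values go against the tissue in their title and which the comparisons do not use. In the library labelled Sham 1, Lhx2 was at 15.3 FPKM, Dio2 at 8.48 FPKM and Crym at 27.6 FPKM, each above both other Sham libraries. In the library labelled HIP-Sham 1, Rax was at 1.89 FPKM and Gpr50 at 10.2 FPKM, where the other HIP-Sham libraries had 0 counts of Rax and 4 counts of Gpr50 each. These values are set against the other libraries of the group and have no test. With 2 or 3 libraries a group, no test for a single outlying library was run.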

How the results depend on the processing

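The calls for Nes and Vcan at day 3, without GH, under GH and over both arms, passed under every alternative run. The counts of members past the threshold moved by over 1.5 times in 5 comparisons, and by less in 5 others: lesion day 3 had 3 (2 to 4, with 2 when the library labelled Sham 1 was included), lesion day 3 under GH 4 (3 to 5), lesion day 3 over both arms 3 (2 to 4), day 10 against day 3 3 (2 to 4) and tissue 6 (6 to 7). GH in PEL day 3 had 1 member, 2 in DESeq2, 0 in 1 fit over all groups, 0 with the replicate block, and 0 to 2 when a library was left out (0 without PEL_3d replicate 1 or PEL_3d-GH replicate 1, 2 without PEL_3d-GH replicate 3). Over all genes that comparison had 4 calls, 57 in DESeq2, 8 with no filter and 1 with the replicate block. Lesion day 10 under GH had 1, 0 with a mean count of at least 50 (which dropped Rax), and 0 to 3 when a library was left out (3 without PEL_10d-GH replicate 1, 0 without Sham-GH replicate 1). GH in Sham had 0, 1 with no filter, and 0 to 1 (1 without Sham-GH replicate 2). The interaction at day 3 had 0, 1 in DESeq2, 1 with no filter, and 0 to 3 (3 without PEL_3d-GH replicate 3, 1 without Sham replicate 3). Lesion day 10 over both arms had 0, and 0 to 1 (1 without PEL_10d replicate 1 or PEL_3d-GH replicate 3). The cause was not tested. Leaving out a library made 96 fits, and the lone Sham library that then remains is assumed to vary like the other group.

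Every value whose sign turned had not passed the test in either setting. With the library labelled Sham 1, these were, on the log2 scale, Dio2 -0.62 and Crym -1.10 for lesion day 3, Dio2 -0.50 for lesion day 10, Gpr50 0.33 and Dio2 -0.47 for GH in Sham, Rax -0.25 in the interaction at day 3, and Lhx2 1.34 and Dio2 0.35 in that at day 10. Over both arms they were Dio2 -0.026 at day 3, Gpr50 0.24 and Dio2 -0.36 at day 10, and Lhx2 -0.44 and Crym -0.35 for GH. The replicate numbers did not pair the libraries, since 3 of 40 same-numbered pairs correlated over 0.1 (range -0.295 to 0.213). With the replicate block, lesion day 10 had Rax -0.64 and Gpr50 -0.43, the interaction at day 10 had Lhx2 0.19 and Gpr50 0.048, and Lhx2 passed at day 3 (-0.89, adjusted p = 0.00975). With a mean count of at least 50, Vcan was 0.020 at lesion day 10 under GH.

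When 1 library was left out, the members whose sign turned had these log2 ranges. Lesion day 3 had Crym -0.060 to 0.67. Lesion day 10 had Rax -0.53 to 0.49, Lhx2 -0.60 to 0.051, Gpr50 -0.32 to 0.46 and Crym -0.55 to 0.23. Lesion day 3 under GH had Lhx2 -0.010 to 0.21. Lesion day 10 under GH had Gpr50 -0.45 to 0.037, Crym -0.30 to 0.087 and Vcan -0.085 to 0.073. GH in Sham had Lhx2 -0.49 to 0.12, Gpr50 -0.54 to 0.24 and Crym -0.61 to 0.11. GH in PEL day 10 had Lhx2 -0.53 to 0.089, Dio2 -0.22 to 0.087, Crym -0.50 to 0.18, Vcan -0.12 to 0.029 and Nes -0.092 to 0.037. The interaction at day 3 had Rax -0.060 to 0.57, Dio2 -0.13 to 0.38 and Nes -0.33 to 0.094. The interaction at day 10 had Lhx2 -0.36 to 0.31, Gpr50 -0.63 to 0.16 and Crym -0.31 to 0.47. Lesion day 10 over both arms had Gpr50 -0.22 to 0.23 and Crym -0.28 to 0.15. Day 10 against day 3 had Rax -0.60 to 0.11 and Lhx2 -0.18 to 0.094. GH over all stages had Lhx2 -0.015 to 0.18. The pseudocount alternative was not run, since no log2 of FPKM was averaged or plotted.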

Other observations

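Vcan had its lowest FPKM per CPM (counts scaled to library depth) in the 2 Sham libraries, at 0.107 in each, and 0.112 to 0.129 in the 15 other hypothalamic libraries. In FPKM all 3 Sham-GH libraries lay above both Sham libraries for Vcan (5.05 to 5.44 against 4.20 and 4.48), whereas the count-based log2 fold change was 0.08 (adjusted p = 0.686). A value of this ratio that moves between libraries means that the gene length behind the FPKM moved, and the transcripts behind it were not analysed here.

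PEL_3d-GH replicate 3 had the lowest level of its group for Nes, Vcan, Dio2 and Crym (10.2, 7.96, 3.31 and 8.75 FPKM) and for Vim (229 FPKM, against 383 and 436). It was not the lowest for Rax, Lhx2 or Gpr50.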
